A study of Homo sapiens with 6 samples.

Results

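The keratin and epidermal differentiation gene clusters are 4 stretches of the human genome in which genes for the tough outer layers of skin and hair lie side by side. Regions that carried tagged histone H2A.Z in the established cell line HEK293T, which derives from human embryonic kidney, were examined in the epidermal differentiation complex (chr1:151950001-153650000), the type I keratins (chr17:38800001-39800000), the type II keratins (chr12:52550001-53350000) and the keratin-associated proteins of chromosome 21 (chr21:31650001-32250000), all on the hg19 build. Overlapping or touching peaks of ubiquitylated and of total H2A.Z were merged, and a merged region was a member when its midpoint lay in 1 of these windows. This gave 729 members out of 198179 merged regions, with 268 in the epidermal differentiation complex, 167 in the type I keratins, 259 in the type II keratins and 35 in the keratin-associated proteins. Among merged regions, membership depended on the midpoint alone, and neither fold change nor direction was used. A merged region exists only where a peak was called, at an IDR (irreproducible discovery rate) of at most 0.05. Measured signal therefore decided which regions could be members. Members were also chosen with earlier results of these data known.

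The cells of all 6 samples had received H2A.Z-1 fused to Flag and the biotin ligase BirA, together with ubiquitin carrying an AviTag, the peptide that BirA biotinylates, at 3 parts to 1 of plasmid, and were collected after 48 hours. Streptavidin then recovered nucleosomes with biotinylated ubiquitin (ubiquitylated H2A.Z, 2 samples), Flag antibody recovered all nucleosomes with the tagged histone (total H2A.Z, 2 samples), and an H3 antibody gave the control (2 samples), all after micrococcal nuclease digestion for 30 minutes. The model is therefore an introduced, tagged histone in a transfected population. The labels do not say whether the 2 samples of a group were separate cultures, so the authors' error rates may measure technical spread. The lists give a single value for each peak or region and no counts, so read depth is unknown and no value per sample can be given. What streptavidin and Flag recover may differ in itself, and this and ubiquitylation cannot be told apart.

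H2A.Z replaces histone H2A in nucleosomes at promoters and regulatory sites, and its ubiquitylated form has been linked to silent chromatin, including facultative heterochromatin. Many, though not all, of the genes in these clusters are strongly tissue-restricted. Late cornified envelope and small proline-rich proteins are cross-linked into the cornified envelope of the outer skin, filaggrin (FLG) bundles keratin filaments, and S100A proteins bind calcium. Type I and type II keratins pair to form intermediate filaments: KRT5 and KRT14 in basal skin cells, KRT8 and KRT18 in simple epithelia. Keratin-associated proteins form the matrix between the keratin filaments of hair.

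In RefSeq's GRCh38.p14 gene table, 63 protein-coding genes run from S100A10 to S100A1 on chromosome 1. The S100A genes sit at the ends of that run, 2 at the low-coordinate end (S100A10 and S100A11) and 14 at the other (from S100A9 to S100A1), and the 47 genes between them include 19 late cornified envelope and 11 small proline-rich genes. On chromosome 17, 12 keratin genes from KRT222 to KRT40 are followed by 34 keratin-associated protein genes and then by 16 keratin genes from KRT33A to KRT17. On chromosome 12, all 27 protein-coding genes from KRT80 to KRT18 are keratins, with KRT80 and KRT7 first and KRT8 and KRT18 last. On chromosome 21, 33 keratin-associated protein genes stand in a row from KRTAP24-1 to KRTAP19-8. This table is of another build than the peak lists, so it gives the order of genes only. Each run was bounded by gene names and not by a window, so it may extend past a border. No gene was assigned to a region, and no sequence of a region was read. Many keratin-associated protein and late cornified envelope genes are near-identical copies, so reads there may have been shared between copies, and the regions in those runs are uncertain in that respect.

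It was first asked whether both forms of H2A.Z occupied the same places in these clusters. About as many regions carried peaks of both forms as of 1 form alone. Of the 729 members, 364 (49.9%, Wilson 95% interval 46.3 to 53.6%) held peaks of both lists, 203 (27.8%) held ubiquitylated peaks only and 162 (22.2%, 19.4 to 25.4%) held total H2A.Z peaks only. Over the rest of the genome 41.9% of merged regions held both, 28.9% ubiquitylated peaks only and 29.2% total H2A.Z peaks only. In flanking stretches as wide as each window on either side, which held 1173 regions, the share with total H2A.Z peaks only was 43.1% (40.2 to 45.9%). Intervals cover counting error alone, and neighbouring regions are not independent, so these differences were not tested.

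Among the 4 windows, the type I keratins and the keratin-associated proteins had the largest shares with ubiquitylated peaks only. In the type I keratins 61 of 167 members (36.5%) held ubiquitylated peaks only and 31 (18.6%) total H2A.Z peaks only, and in its flanks 25.1% and 42.9% of 303 regions. For the keratin-associated proteins these classes took 14 of 35 members (40.0%) and 7 (20.0%), and in the flanks of that window 55.6% and 13.3% of 45 regions. In the epidermal differentiation complex the split was nearly even, with 58 and 66 of 268 members, and the type II keratins had 70 and 58 of 259. As peak counts, the 4 windows held 578 ubiquitylated and 532 total H2A.Z peaks, a ratio of 1.09, and the ratio was 1.29 in the type I keratins and 0.981 in the epidermal differentiation complex. The whole lists stood at a ratio of 0.999.

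The clusters were not poor in H2A.Z as a group, but they differed widely. The type II keratins held 324 regions per Mb, where windows of the same width across the genome that held any region had a median of 36.2 per Mb and an upper quartile of 87.5. The type I keratins held 167 and the epidermal differentiation complex 158 regions per Mb, and the corresponding upper quartiles were 88.0 and 88.8. The keratin-associated proteins held 58.3 regions per Mb, between the median of 35.0 and the upper quartile of 86.7. The low and high flanks held 116 and 220 per Mb around the epidermal differentiation complex, 99.0 and 204 around the type I keratins, 172.5 and 145 around the type II keratins, and 45.0 and 30.0 around the keratin-associated proteins. The high flanks of the epidermal differentiation complex and of the type I keratins were thus denser than the windows themselves. Ubiquitylated peaks covered 90.2 bp per kb in the type II keratins but 11.01 bp per kb in the keratin-associated proteins, and total H2A.Z peaks 88.4 and 9.26 bp per kb.

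**Figure D1:**
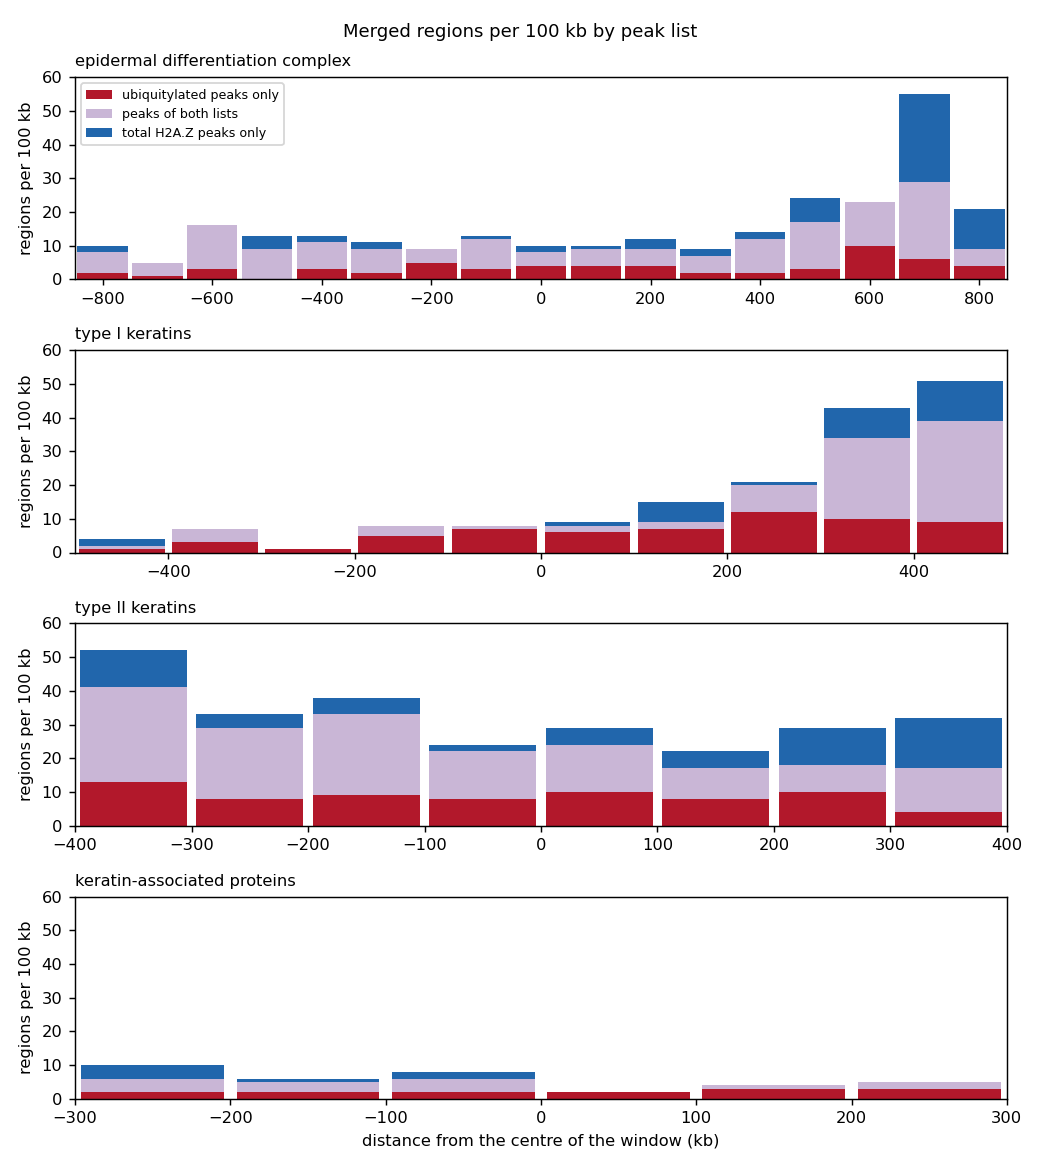
Number of merged regions in each 100 kb bin (vertical axis) against distance from the centre of the window in kb (horizontal axis), with bars stacked by the peak lists a region holds. Regions crowded at the high-coordinate end of the epidermal differentiation complex (55 in 1 bin) and of the type I keratins (51 in the last bin), while the type II keratins held 22 to 52 in every bin.

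Density was uneven inside the windows. In the type I keratins the first 25% of the window held 11 regions and the last 25% held 106. The bin chr17:39000001-39100000 held 1 region. In the epidermal differentiation complex 127 of 268 regions lay in the last 25% of the window, the side on which the RefSeq order places the longer run of S100A genes, and 46 of these 127 held total H2A.Z peaks only. In the second 25% of the window 5 of 50 regions held total H2A.Z peaks only. The type II keratins held 85, 62, 51 and 61 regions in successive 25% steps from low to high coordinates.

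The next question was which members differed between the pull-downs. A smaller share of members than of all merged regions was higher in total H2A.Z, and the gap to the flanks was larger. Towards ubiquitylated H2A.Z the share was close to that of all merged regions. In the authors' differential lists 62 members (8.50%, Wilson 95% interval 6.69 to 10.8%) were higher in ubiquitylated H2A.Z, against 9.39% of all merged regions. Another 59 members (8.09%, 6.33 to 10.3%) were higher in total H2A.Z, against 12.1% of all merged regions. Together 121 members (16.6%) were in either list, below the 21.5% of all merged regions. The flanks held 61 regions higher in ubiquitylated H2A.Z (5.20%) and 273 higher in total H2A.Z (23.3%, 20.9 to 25.8%). Ubiquitylated H2A.Z thus accounted for 51.2% of the differential members (42.4 to 60.0%), 18.3% of the differential regions in the flanks and 43.7% of those in the rest of the genome. Each direction is relative to the authors' normalization, which no source used here states. With the borders moved in by 100 kb, the share of members higher in total H2A.Z was 3.86%.

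**Figure D2:**
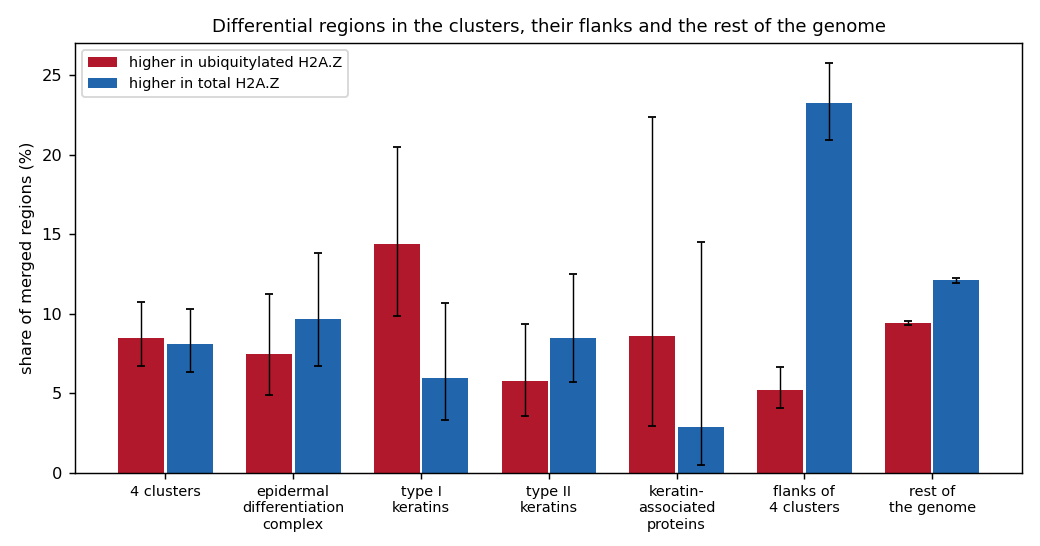
Share of merged regions in percent (vertical axis) that the authors list as higher in ubiquitylated (red) or in total H2A.Z (blue), with Wilson 95% intervals as bars, for the 4 clusters together, each cluster, the flanks and the rest of the genome. The red bar is taller in the type I keratins (14.4% against 5.99%), and the blue bar is taller in the flanks (5.20% against 23.3%).

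Among the clusters the type I keratins had the highest share of regions higher in ubiquitylated H2A.Z. There, 24 of 167 members (14.4%, 9.85 to 20.5%) favoured the ubiquitylated form in the authors' lists and 10 (5.99%) the total. The type II keratins had 15 of 259 (5.79%) and 22 (8.49%), and the epidermal differentiation complex had 20 of 268 (7.46%) and 26 (9.70%). The keratin-associated proteins had 3 of 35 members higher in the ubiquitylated form and 1 higher in the total. The flanks of the type II keratins had 5 of 254 regions (1.97%) in the first of these classes and 54 (21.3%) in the second. These shares were 6.27% and 25.1% of 303 regions in the flanks of the type I keratins. They were 5.08% and 24.7% of 571 regions around the epidermal differentiation complex, and 17.8% and 4.44% of 45 regions around the keratin-associated proteins. Without the type I keratins, ubiquitylated H2A.Z accounted for 43.7% of the differential members of the other windows.

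Among differential members with peaks of 1 list alone, direction followed that list with 1 exception. Peaks and directions came from the same samples, so this agreement was largely fixed in advance. Over all merged regions it failed for 73 of 57268 with ubiquitylated peaks only and 48 of 57791 with total H2A.Z peaks only. Of the 203 members with ubiquitylated peaks only, 45 (22.2%) were higher in the ubiquitylated form and 0 in the total; over all merged regions of this class 23.8% were higher in the ubiquitylated form, so the members' share was near the background. The 162 members that held total H2A.Z peaks alone behaved likewise: 1 was higher in the ubiquitylated form and 36 (22.2%) were higher in the total, a class in which 30.5% of all merged regions and 41.0% of those in the flanks were higher in total H2A.Z. The exception was chr17:39382939-39383438 in the type I keratins, whose total H2A.Z peak had an IDR of 0.030 and whose log2 fold change was 0.51 (FDR 0.037) in the authors' deposited table. IDR is the irreproducible discovery rate, which is lower for peaks that repeat better between replicates; whether the files hold its local form (per peak) or its global form (like a q-value) is not stated. Members with peaks of both forms were higher in ubiquitylated H2A.Z in 16 of 364 cases (4.40%) and in total H2A.Z in 23 (6.32%), against 5.97% and 7.52% of all merged regions with both. In the epidermal differentiation complex these were 10 and 9 of 144. In the type II keratins they were 1 and 8 of 131.

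Sizes of change were moderate. The fold changes are the authors' own and were read as log2 values, since edgeR, which writes that scale, is named in the submitters' processing notes. On that scale the authors' deposited table gives a median of 0.66 for members higher in ubiquitylated H2A.Z (range 0.42 to 1.84), and 0.68 for all such merged regions. For members higher in total H2A.Z it was -0.78 in the authors' deposited table (range -1.42 to -0.37), and for all such merged regions -0.76. At least 2-fold changes numbered 6 members (0.823%, with 1.47% of all merged regions) towards ubiquitylated and 12 members (1.65%, with 2.39% of all merged regions) towards total H2A.Z. Of these 12, 9 lay in the epidermal differentiation complex and 3 in the type II keratins. The 6 comprised 3 in the keratin-associated proteins, 2 in the type I keratins and 1 in the epidermal differentiation complex.

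**Figure D3:**
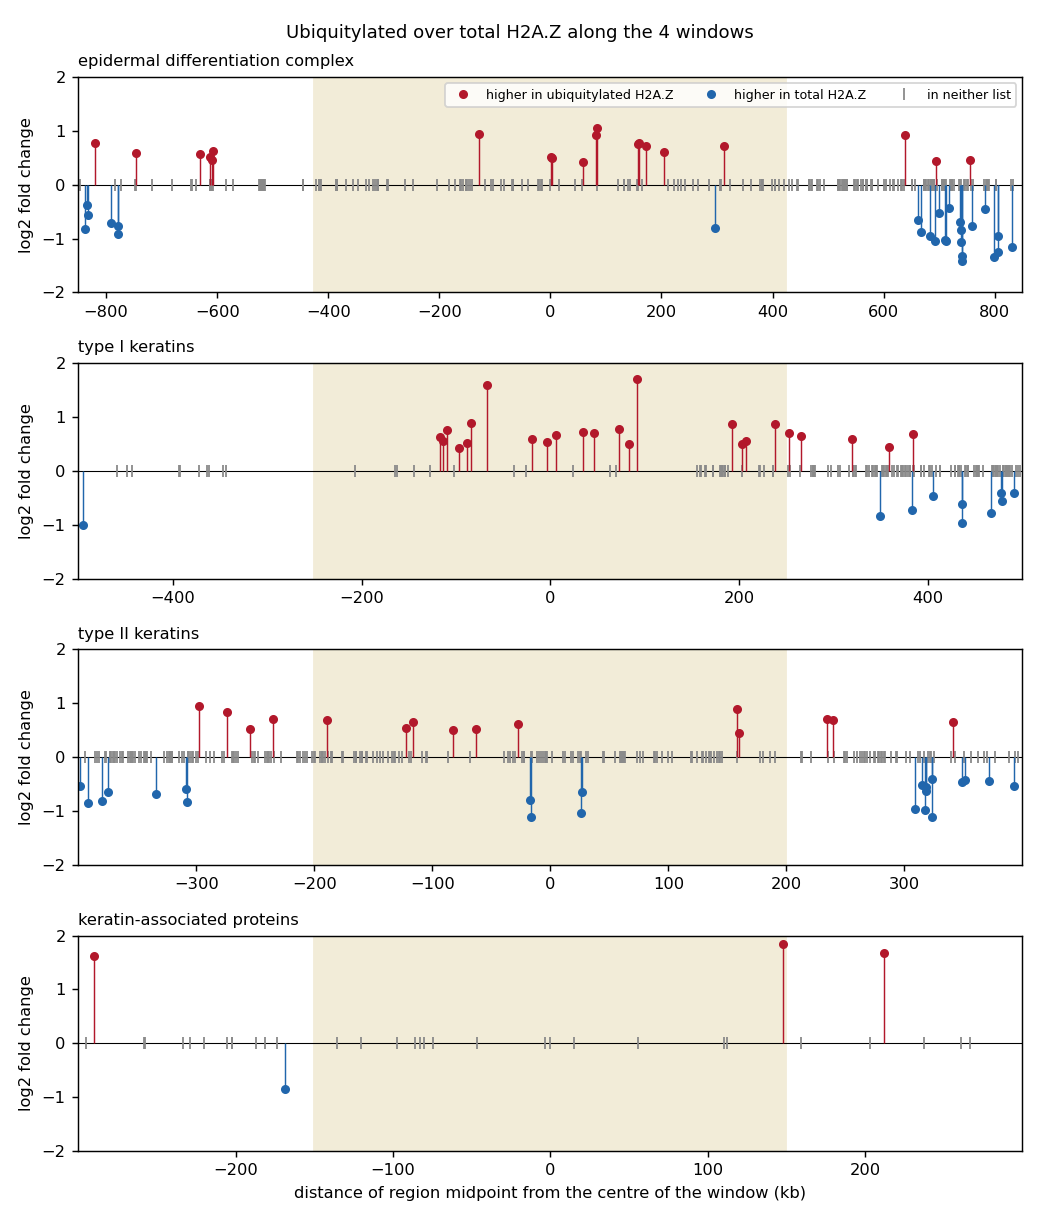
The authors' log2 fold change of ubiquitylated over total H2A.Z (vertical axis) for each differential member against its distance in kb from the centre of its window (horizontal axis); red points are higher in ubiquitylated and blue points in total H2A.Z, grey ticks are members in neither list, and the shaded band is the central 50% of the window. Most differential members in the shaded bands are red (39 of 44), and most outside them are blue (54 of 77). The bands hold 273 members in all and the outer parts 456, most of them grey ticks in both. The share of blue points among the 456 is near the 12.1% of all merged regions.

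Directions were arranged along the windows. In the central 50% of the 4 windows 39 of 44 differential members (88.6%, Wilson 95% interval 76.0 to 95.05%) were higher in ubiquitylated H2A.Z, and in the outer 25% at each end 23 of 77 (29.9%, 20.8 to 40.8%), with 43.7% over all differential regions. The central parts held 11 members higher in the ubiquitylated form and 1 higher in the total in the epidermal differentiation complex, 19 and 0 in the type I keratins, 8 and 4 in the type II keratins, and 1 and 0 in the keratin-associated proteins. The ends held 9 and 25, 5 and 10, 7 and 18, and 2 and 1 in the same windows. This division was chosen after the values had been seen, and the contrast was not tested. Where the borders were moved in by 100 kb, the share at the ends was 61.0% (25 of 41), and 21 of the 59 members higher in total H2A.Z remained.

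The epidermal differentiation complex had a long stretch without any region higher in total H2A.Z. Its last 25% held 19 of its 26 members higher in total H2A.Z. Its longest series in 1 direction, over chr1:152053462-153005093 (952 kb), comprised 15 members higher in ubiquitylated H2A.Z, and the authors' deposited table gave them a median log2 fold change of 0.62. That stretch began in the first 25% of the window and covered 105 members, of which the others were in neither list. Over all merged regions 9.39% were higher in ubiquitylated H2A.Z, but the series set the ends of its own stretch, so the shares were not compared. Its members were unevenly spread: chr1:152250001-152650000 held 0 differential members, and the second 25% of the window held 1 among 50 regions. A single region, chr1:153095530-153095853, was higher in total H2A.Z in the central 50% (log2 fold change -0.80, FDR 0.027 in the authors' deposited table). Of the 127 members in the last 25% of the window, 3 were higher in the ubiquitylated form and 19 in the total. The share higher in total H2A.Z was 12.1% over all merged regions and 23.8% in the adjoining high flank. The 19 included a series of 9 over chr1:153500309-153541774 (41.5 kb), whose median was -1.03 on the log2 scale in the authors' deposited table. At the low end, the first 100 kb held 1 region higher in ubiquitylated and 6 higher in total H2A.Z.

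The member of lowest FDR towards ubiquitylated H2A.Z in this complex was chr1:152882792-152883525, 734 bp wide, which the authors' deposited table lists at a log2 fold change of 1.06 (FDR 2.6e-07). It held a ubiquitylated peak and no total H2A.Z peak. The next, chr1:152168972-152170182, held peaks of both forms over 1211 bp and stood at 0.57 (FDR 0.00021) in the authors' deposited table. For chr1:152671446-152671683 the authors' deposited table gave 0.95 (FDR 0.00089), and for chr1:152972756-152973266 it gave 0.72 (FDR 0.0024). All 4 lay outside the dense high-coordinate end.

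Towards total H2A.Z, the lowest FDR of the whole complex fell on chr1:153540561-153541114, listed at a log2 fold change of -1.32 (FDR 1.9e-10) by the authors' deposited table. Its neighbour chr1:153541284-153541774 stood at -1.42 (FDR 8.4e-09) in the authors' deposited table, the most negative value among all members. Both held a total H2A.Z peak only, as did chr1:153599441-153599746 at -1.35 (FDR 8.4e-09 in the authors' deposited table). The other 6 members of this complex changed at least 2-fold towards total H2A.Z were chr1:153492340-153492631, chr1:153511004-153511177, chr1:153511525-153511745, chr1:153539194-153539498, chr1:153605946-153606097 and chr1:153631211-153631560, all with total H2A.Z peaks only. These 6 spanned log2 fold changes of -1.25 to -1.03 in the authors' deposited table. All 9 lay in the last 200 kb of the window. At the low end, chr1:152020467-152020905 held peaks of both forms and stood at -0.91 (FDR 8.1e-06) in the authors' deposited table.

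By number of differential members, the type I keratins held the longest series of the 4 windows. From chr17:39183079 to chr17:39619370 (436 kb) all 22 differential members were higher in ubiquitylated H2A.Z, with log2 fold changes of 0.43 to 1.70 and a median of 0.65 in the authors' deposited table. Where 9.39% of all merged regions were higher in ubiquitylated H2A.Z, they made up 22 of the 61 members in that stretch, whose ends they set. Among them, chr17:39391885-39392359 had the lowest FDR, which the authors' deposited table gives as a log2 fold change of 1.70 (FDR 1.2e-09). Second was chr17:39232914-39233361 at 1.59 (FDR 4.2e-08) in the authors' deposited table. These were the 2 members of the window changed at least 2-fold, and both held a ubiquitylated peak only. Much smaller changes were listed for chr17:39491586-39492224 (0.87, FDR 7.7e-05) and chr17:39215852-39216337 (0.88, FDR 0.00015) in the authors' deposited table.

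At the crowded end of the type I keratins the direction turned. The last 7 differential members, over chr17:39704773-39792073 (87.3 kb), were all higher in total H2A.Z, with a median of -0.56 on the log2 scale in the authors' deposited table, and lay among 45 members. They set the ends of that stretch. Higher in total H2A.Z were 12.1% of all merged regions and 25.5% of those in the adjoining high flank. In that stretch chr17:39766376-39766817 stood at -0.78 (FDR 0.00049) and chr17:39735737-39735931 at -0.96 (FDR 0.00073) in the authors' deposited table. Between the 2 series the directions alternated over 4 differential members. In the authors' deposited table chr17:39658607-39659292 (0.44, FDR 0.019) and chr17:39683977-39684635 (0.68, FDR 0.002) were on the ubiquitylated side. In the authors' deposited table chr17:39649057-39649656 (-0.84, FDR 0.00019) and chr17:39682902-39683293 (-0.72, FDR 0.034) were on the total side. The member of lowest FDR towards total H2A.Z was the first of the window, chr17:38804339-38805058, at -0.9996 (FDR 5.5e-07) in the authors' deposited table. The widest member, chr17:39790024-39792073 (2050 bp, peaks of both forms), was also higher in total H2A.Z, at -0.41 (FDR 0.0056) in the authors' deposited table.

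In the type II keratins the directions alternated in blocks. Read from low to high coordinates, the differential members formed series of 7 higher in total, 10 higher in ubiquitylated, 4 in total, 4 in ubiquitylated, 7 in total, 1 in ubiquitylated and 4 in total H2A.Z. The series of 10 ran over chr12:52652465-52922909 (270 kb) with log2 fold changes of 0.51 to 0.95 in the authors' deposited table. The first series of 7 ran over chr12:52550980-52642052 (91.1 kb), and the second over chr12:53259048-53273848 (14.8 kb), where 7 of 13 members were higher in total H2A.Z. Over all merged regions 12.1% were, but the series set the borders of its own stretch, so the shares were not compared. The ends of the type II keratin window held 365 and its central 50% held 282 regions per Mb. In the type I keratins these densities were 234 and 100.0 per Mb.

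Of the 15 type II keratin members higher in ubiquitylated H2A.Z, 0 reached 2-fold. The lowest FDR belonged to chr12:52760642-52761331, which stands at 0.69 (FDR 0.00036) in the authors' deposited table. It was followed by chr12:52652465-52652775 at 0.95 (FDR 0.0046) and chr12:52827596-52828362 at 0.53 (FDR 0.0095) in the authors' deposited table, and by chr12:53183941-53184301 at 0.70 (FDR 0.01) there. Each of the 4 held a ubiquitylated peak only. Towards total H2A.Z the lowest FDR was that of chr12:52569100-52570173, 1074 bp wide, at -0.82 (FDR 2.7e-06) in the authors' deposited table. Near it, chr12:52574946-52575949 held peaks of both forms and stood at -0.65 (FDR 7.6e-05) in the authors' deposited table. The 3 members at least 2-fold higher in total H2A.Z were chr12:53273643-53273848 at -1.11 (FDR 0.00037), chr12:52933352-52933611 at -1.12 (FDR 0.0012) and chr12:52975406-52975688 at -1.03 (FDR 0.0015) in the authors' deposited table. The last pair lay in the central 50% of the window.

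The keratin-associated proteins of chromosome 21 had the fewest differential regions, and the largest single change towards ubiquitylated H2A.Z. At chr21:32097422-32097880, 459 bp wide and the widest member of this window, the authors' deposited table gives a log2 fold change of 1.84 (FDR 6.4e-15), the highest value and the lowest FDR among all 729 members. Its ubiquitylated peak had no total H2A.Z counterpart. The same held for chr21:32161977-32162175 at 1.68 (FDR 0.00071) and chr21:31659789-31659973 at 1.62 (FDR 2.5e-05) in the authors' deposited table. Higher in total H2A.Z was chr21:31781078-31781453, with peaks of both forms, at -0.85 (FDR 0.00038) in the authors' deposited table. In the flanks of this window 8 of 45 regions were higher in the ubiquitylated form and 2 in the total.

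Members higher in ubiquitylated H2A.Z lay in sparser surroundings than members higher in total H2A.Z. The first had a median of 14 other merged regions within 50 kb (quartiles 8 and 26) and the second 41 (quartiles 30.5 and 48). Over all merged regions the order was the other way round, with medians of 21 around regions higher in ubiquitylated and 12 around regions higher in total H2A.Z. Within the windows the medians were 11.5 and 41.5 in the epidermal differentiation complex, 9.5 and 47 in the type I keratins, 27 and 37 in the type II keratins, and 3 and 8 in the keratin-associated proteins, where they rest on 3 members and 1 member. Members in neither list had a median of 28. Local density thus moved with direction in each window, and its part in the result was not tested.

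**Figure D4:**
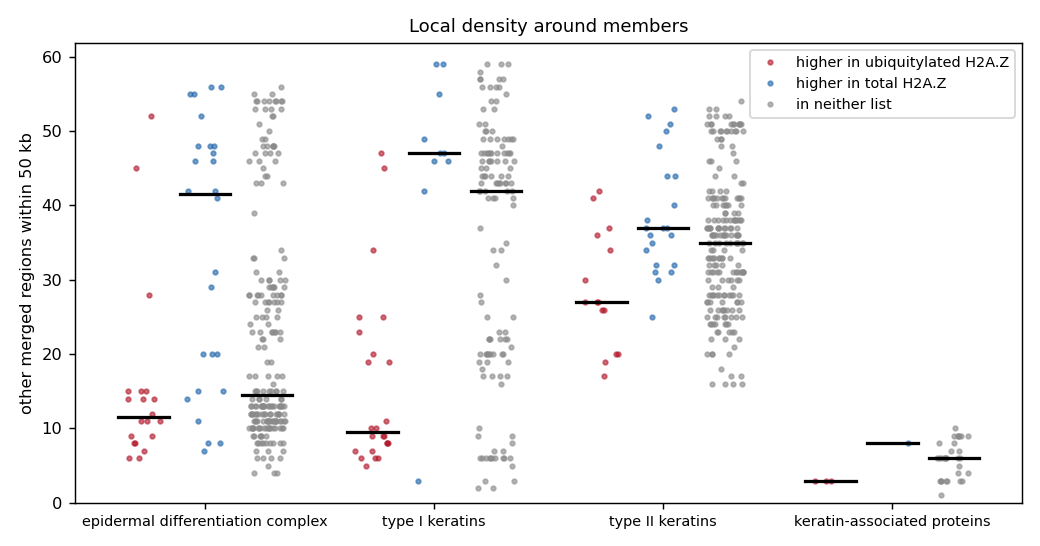
Number of other merged regions within 50 kb (vertical axis) of each member, by window and by direction in the authors' lists; points are members and black lines are medians. In every window the median line of members higher in ubiquitylated H2A.Z is below that of members higher in total H2A.Z (11.5 and 41.5 in the epidermal differentiation complex), with overlap between the points in 3 of the 4 windows.

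Differential members were wider than the others when the windows were pooled. Members higher in ubiquitylated H2A.Z had a median width of 419 bp, those higher in total H2A.Z 376 bp and those in neither list 297 bp. Over all merged regions these medians were 507, 362 and 295 bp. In the type I keratins they were 493, 513 and 330 bp, and in the epidermal differentiation complex 300, 322 and 281 bp, so in both windows members higher in total H2A.Z had the larger median of the first pair. In the keratin-associated proteins the 3 members higher in ubiquitylated H2A.Z had a median of 199 bp, and those in neither list 234 bp. Members with peaks of both forms were 353 bp wide in the median, where all such merged regions had 425 bp. A median of 262 bp belonged to members that held ubiquitylated peaks alone, and 245 bp to those that held total H2A.Z peaks alone. The 729 members had a median of 310 bp (138 to 5536 bp) and all merged regions 313 bp.

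Peaks in the windows repeated between replicates about as well as elsewhere, by the authors' own IDR. The median IDR of ubiquitylated peaks was 0.0011 in the 4 windows, and of the whole list 0.00137. For total H2A.Z peaks it was 0.00293 in the windows and 0.00335 over the whole list. The type I keratins had the highest medians among the windows, 0.00154 for ubiquitylated and 0.00335 for total H2A.Z peaks, and the epidermal differentiation complex the lowest, 0.000786 and 0.00262.

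In the epidermal differentiation complex the regions just inside the borders were chr1:151952135-151952294 (ubiquitylated peak only) and chr1:153632271-153632489 (total H2A.Z peak only), both in neither list, and those just outside were chr1:151949446-151949696 and chr1:153650714-153652377. The first of the outside pair was higher in total H2A.Z (log2 fold change -0.77, FDR 0.048 in the authors' deposited table). In the type I keratins the first inside region, described above, was higher in total H2A.Z, and so was the region just past the high border, chr17:39802096-39802289 (-0.98, FDR 0.0098 in the authors' deposited table). The first region inside the type II keratins, chr12:52550980-52551275, was higher in total H2A.Z as well (-0.54, FDR 0.038 in the authors' deposited table). On chromosome 21 both borders fell in stretches without regions, between chr21:31590206 and chr21:31654793 and between chr21:32216967 and chr21:32252184, and the regions on either side were in neither list.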

How the data were processed

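ChIP-seq of ubiquitylated H2A.Z, total H2A.Z and H3 was done in 2 samples each. Bowtie, SAMtools, MACS2, edgeR and hg19 are named in the submitters' processing notes; no version or setting is given there. Deposited by the authors were 1 peak list per H2A.Z form with an IDR per peak (local or global form not stated) that never exceeded 0.05. They also deposited 2 differential lists with a fold change, read as log2, and an FDR per region, at most 0.05; their test and normalization are not stated there. H3 libraries entered no comparison.

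Peaks were merged where they overlapped or touched (starts raised by 1 for 1-based coordinates), and all 42574 differential regions matched a merged region exactly. Shares, medians, Wilson intervals, series, gaps and neighbour counts were computed with Python 3.11.15, numpy 2.4.6, pandas 2.3.3 and scipy 1.17.1, and drawn with matplotlib 3.10.9. Merging and counting were tested on simulated data. No count model was fitted because the lists hold no counts, and their depth is unknown.

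Named regions were, per window, up to 4 of lowest FDR per direction, the widest, the peak of lowest IDR per list, those changed at least 2-fold, the longest series and gap, and those at the borders. Members, lists and this rule were chosen with earlier results of these data known.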

Additional observations from a re-analysis of the deposited data

How the results depend on the processing

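No paired analysis was possible because the lists hold no values per library; leaving out a replicate was not run, since it needs the same values. Shares counted as moved when they left the Wilson interval of the reported value (median width, its binomial interval), and densities and ratios when they changed by over 1.5 times. Of 88 alternatives 67 stayed within these limits and 21 moved; region density and median width moved under none of theirs. The share of members higher in ubiquitylated H2A.Z (8.50%) was 3.57% at an FDR under 0.01, 0.823% at 2-fold or more and 4.40% with peaks of both lists. The share higher in total H2A.Z (8.09%) was 4.94%, 1.65% and 6.32% under the same settings and 3.86% with borders moved in by 100 kb. The ubiquitylated part of the differential members (51.2%) was 41.9%, 33.3% and 41.0% under the first 3 settings and 73.1% with borders moved in. Its majority thus turned to total H2A.Z under the first 3, as it did with borders moved out (44.2%) and without the type I keratins (43.7%). Among all 198179 merged regions the total side was the larger already as reported (23960 against 18614 regions). It remained the larger there at an FDR under 0.01 (14052 against 10230) and at 2-fold or more (4738 against 2908). With peaks of both lists the counts over all merged regions were 6253 against 4962. With peaks under an IDR of 0.01, 40.0% of regions held both forms (49.9% as reported) and 36.2% ubiquitylated peaks only (27.8% as reported); at the authors' IDR limit the second share was 31.5% without the epidermal differentiation complex. Chosen after seeing the data were the settings for the central 50%, the outer 25% at each end, neighbour counts, the flanks and groups within 10 kb. The share in the central 50% (88.6%) was 100% with peaks of both lists (11 of 11) and 96.9% without the type II keratins. The share at the ends (29.9%) was 61.0% with borders moved in, a majority of the other direction, 17.5% at an FDR under 0.01 and 17.9% with peaks of both lists. The ratio of median neighbour counts, members higher in ubiquitylated over members higher in total H2A.Z, was 0.341, and 0.226 at an FDR under 0.01 or 0.217 without the type II keratins. Causes were not tested. Each direction is relative to the authors' normalization, and the unknown depth limits what a missing peak can show.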

Other observations

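The widest member lay in the epidermal differentiation complex, at chr1:152079935-152085470. It spanned 5536 bp, held 2 ubiquitylated and 2 total H2A.Z peaks and was in neither differential list. It also held the total H2A.Z peak of lowest IDR in that complex, chr1:152082038-152085470 (3433 bp, IDR 1.25e-05). The ubiquitylated peak of lowest IDR there was chr1:153112938-153113176 (IDR 3.84e-07), whose region was higher in ubiquitylated H2A.Z (log2 fold change 0.73, FDR 0.008 in the authors' deposited table). In the type II keratins the widest member was chr12:52566819-52568531 (1713 bp), in neither list. The peaks of lowest IDR were chr12:53004406-53004670 for ubiquitylated (IDR 4.17e-07) and chr12:53084856-53085362 for total H2A.Z (IDR 1.16e-05), both in regions with peaks of both forms and in neither differential list. The corresponding type I keratin peaks were chr17:39703844-39704565 (IDR 2.4e-06) and chr17:39712109-39712252 (IDR 6.87e-05), the second without a ubiquitylated counterpart. On chromosome 21 they were chr21:31866675-31866987 (IDR 8.14e-05) and chr21:31781078-31781453 (IDR 3.88e-06), and the region of the second was the member higher in total H2A.Z there.

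Stretches without any H2A.Z region were longest in the type I keratins, where chr17:38956069-39092555 held none over 136 kb. The longest such stretch was 67.1 kb in the epidermal differentiation complex (chr1:152286439-152353497), 54.0 kb on chromosome 21 (chr21:32006065-32060025) and 23.4 kb in the type II keratins (chr12:52887024-52910415). Gaps of more than 20 kb made up 35.3% of the 34 gaps between neighbouring members on chromosome 21 and 0.775% of the 258 in the type II keratins, where all merged regions had 15.9%. Counting differential members of 1 direction within 10 kb of each other once, the 4 windows held 47 groups higher in ubiquitylated and 32 higher in total H2A.Z. Ungrouped, these were 62 and 59 members. Groups were not counted in the flanks or over all merged regions, so these numbers have no background. The largest group held 7 regions.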
